A study of Mus musculus with 2 samples.

Results

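The genes described are the receptor tyrosine kinase gene Ret, its 4 co-receptor genes Gfra1, Gfra2, Gfra3 and Gfra4, the ligand genes Gdnf, Nrtn and Artn, and the neurotrophin receptor gene Ngfr. They are 9 of the 55536 genes quantified, chosen by symbol, and all 9 were found. Adrenal glands of male B6CASTF1/J mice, an F1 hybrid strain, were sampled at 2 months of age. On replication the labels differ: the sample descriptions number the animals Male 03 and Male 04, whereas the library descriptions carry 1 animal number and the donor field 1 identifier for both. The 2 libraries, replicates 1 and 2 of 1 group, were made from 300 ng of total RNA with ERCC spike-ins and a directional kit, after reduction of ribosomal RNA. With no second condition, the data give levels, isoforms and the difference between these libraries, and each SD below covers the spread between these libraries only. No treatment, mutation or transgene is named for either library.

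Ret is a cell surface kinase that does not bind its ligands alone. A ligand of the GDNF family binds a GPI-anchored co-receptor of the Gfra family, and the pair engages Ret, whose phosphorylated tyrosines then recruit adaptor proteins. Each co-receptor has a preferred ligand: Gdnf for Gfra1, neurturin (Nrtn) for Gfra2, artemin (Artn) for Gfra3 and persephin (Pspn) for Gfra4. Ngfr, also called p75NTR, binds all neurotrophins and pro-neurotrophins, acts beside the Trk kinases and with sortilin, and is a marker of neural crest cells and of Schwann cells. The adrenal medulla holds chromaffin cells, which derive from the neural crest, with nerve fibres and glia, inside a cortex of steroid-producing cells.

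The gene tables held 36182740 expected counts on genes in replicate 1 and 34149995 in replicate 2, of which the 9 genes took 1081 and 954. Levels are given in TPM, a measure that divides counts by transcript length and scales each library to a sum of 1000000. In these total RNA libraries nuclear protein-coding genes made up 297427 TPM in replicate 1 and 304363 TPM in replicate 2. Levels as a share of nuclear protein-coding genes alone would thus be 3.36 and 3.29 times as high. Each library was quantified in 2 ways by the authors, one from alignments and one directly from reads, and values are alignment-based unless said to be read-based. Markers of the labelled tissue were present: 8 of 8 cortical and 13 of 13 chromaffin markers reached 1 TPM in both libraries. Cortical markers summed to 14864 TPM in replicate 1 and 16476 TPM in replicate 2, and chromaffin markers to 2636 and 2294 TPM. In bulk tissue, fewer cells of a type and less RNA per cell cannot be told apart.

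The co-receptor Gfra2 had the highest level of the 9 genes and the ligand Gdnf the lowest. Ret itself lay in the middle of the order, and among the ligands Nrtn stood far above Artn and Gdnf. Of the 9 genes, 5 reached 1 TPM in both libraries (Gfra2, Gfra4, Ngfr, Nrtn and Ret), where 23.4% of all genes and 54.2% of 22015 nuclear protein-coding genes did so. The share of protein-coding genes with a higher mean TPM ran from 44.2% for Gfra2 to 68.4% for Gdnf, so all 9 were low or middling messages in the whole gland.

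**Figure D1:**
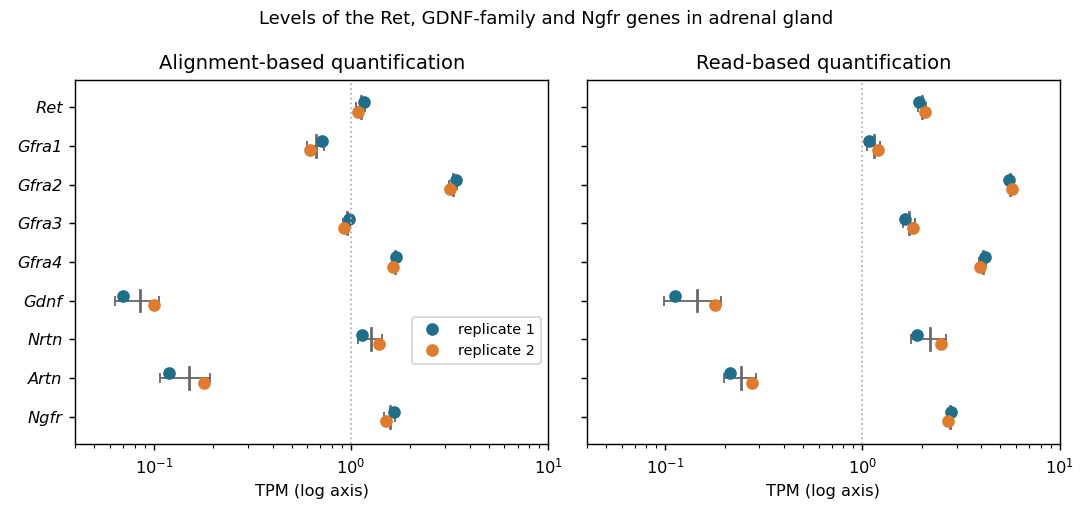
Level of each gene in TPM on log axes, by alignment (left) and from reads (right); circles are the libraries, vertical ticks the mean and horizontal bars 1 SD (n = 2). In both panels Gfra2 lies highest and Gdnf and Artn stand far to the left of the other 7 genes; the dotted line marks 1 TPM.

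Ret (ENSMUSG00000030110.13, chr6:118151745-118197718, minus strand, GRCm38) encodes the kinase. Its level was 1.16 TPM in replicate 1 and 1.08 TPM in replicate 2, on 215 and 187 counts. The mean was 1.12 ± 0.0566 TPM (SD, n = 2), and 54.2% of protein-coding genes had a higher one. Read-based TPM gave 1.94 and 2.07. The libraries lay close together, and their order turned round between the quantifications.

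Ret messages of both annotated tails were found. The annotation holds 2 transcripts, Ret-201 of 20 exons and 1115 codons and Ret-202 of 19 exons and 1073 codons. In Ret-202 the last exon starts where exon 19 of Ret-201 starts and runs on, for 870 bases against 148 in Ret-201, so the proteins end differently. These ends correspond to the long and short forms of the kinase known as Ret51 and Ret9, after the 51 and 9 residues that are particular to each, and the tail of the long form holds a tyrosine that binds Grb2. The coding ends are printed to show where the forms part, with the 30 bases before the split in lower case and the part particular to each form, up to its stop codon, in capitals.
Ret-201: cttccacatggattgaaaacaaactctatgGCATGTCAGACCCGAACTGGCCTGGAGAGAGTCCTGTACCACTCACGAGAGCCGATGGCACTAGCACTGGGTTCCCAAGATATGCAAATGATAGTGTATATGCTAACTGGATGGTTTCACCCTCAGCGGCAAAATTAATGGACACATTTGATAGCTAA
Ret-202: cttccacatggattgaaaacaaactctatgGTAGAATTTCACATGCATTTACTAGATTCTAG
The capitals lie at chr6:118153853-118154010 for Ret-201 and chr6:118155256-118155287 for Ret-202, on the minus strand, and the sequences are from the GENCODE M21 transcripts.

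The short-tail transcript Ret-202 held the larger share in both libraries. It took 61.5% of Ret TPM in replicate 1 and 58.3% in replicate 2, a mean of 59.9 ± 2.27% (SD, n = 2). Ret-201 took the other 38.5% and 41.7%. Read-based shares of Ret-202 averaged 66.5 ± 3.08%, so the order of the forms was the same in both quantifications. The depth behind the split was modest: the authors' posterior mean counts for Ret-202 were 121.79 ± 11.5 in replicate 1 and 100.83 ± 10.19 in replicate 2 (posterior SD), against 93.21 ± 11.5 and 86.17 ± 10.19 for Ret-201. Both forms have sequence of their own to be told apart by, since 41.7% of the 31-base words of Ret-201 and 29.2% of those of Ret-202 occur in no other transcript of the gene. Ret-202 also has a longer first exon (658 bases against 73), so its own words come from both ends.

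**Figure D2:**
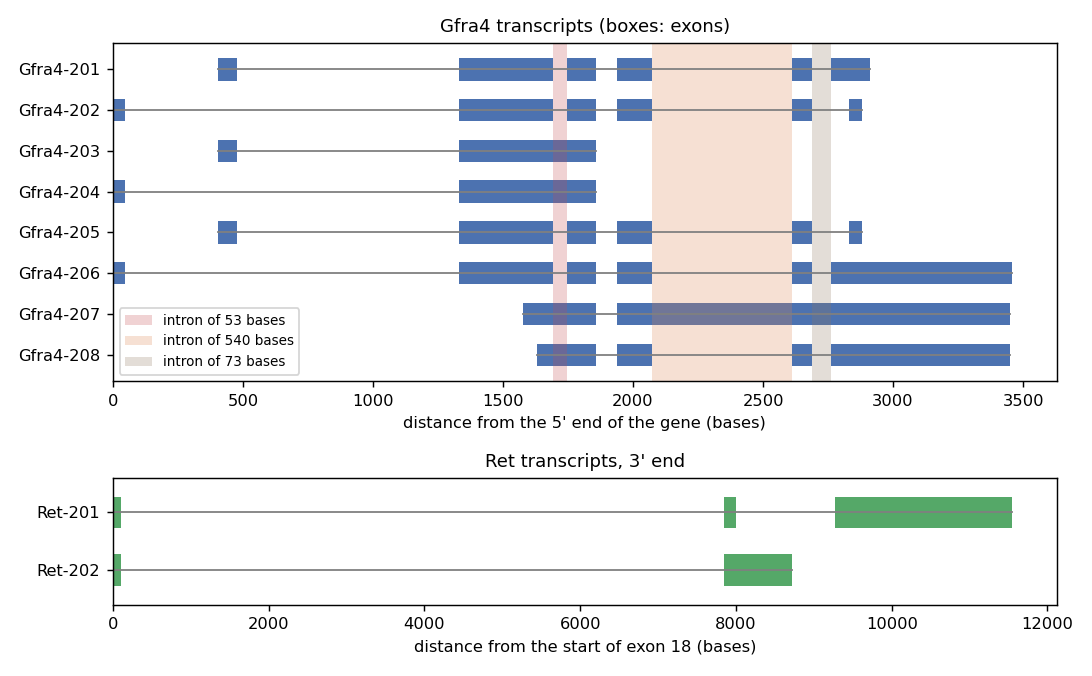
Exons (boxes) of the 8 annotated Gfra4 transcripts by distance in bases from the 5′ end of the gene, with 3 introns shaded, and of the 3′ end of both Ret transcripts by distance from the start of exon 18. Gfra4-203, Gfra4-204, Gfra4-207 and Gfra4-208 run through the intron of 53 bases and Gfra4-207 also through those of 540 and 73 bases; Ret-202 reads on past the end of exon 19 of Ret-201.

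The co-receptors together reached 6.79 TPM in replicate 1 and 6.34 TPM in replicate 2, which was 5.85 and 5.87 times the level of Ret. Gfra2 made up 50.1% and 50% of that sum, Gfra4 25% and 25.7%, Gfra3 14.4% and 14.5%, and Gfra1 10.5% and 9.78%. The shares moved by less than 1 percentage point between the libraries. In the read-based tables Gfra4 held more of the sum, 33.7% and 31.1%, and Gfra2 less, 44.5% and 45.1%.

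Gfra2 (ENSMUSG00000022103.10, chr14:70890120-70979838, plus strand), the neurturin co-receptor, stood at 3.4 TPM in replicate 1 and 3.17 TPM in replicate 2, on 354 and 301 counts (mean 3.29 ± 0.163 TPM, SD, n = 2). Read-based TPM was 5.54 and 5.72. Its level was 2.93 and 2.94 times that of Ret, and 4.79 and 5.11 times that of Gfra1. The gap to Gfra1 was far larger than the spread of either gene.

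Most Gfra2 RNA was assigned to the full-length transcript Gfra2-201, of 464 codons. It held 65.9% of Gfra2 TPM in replicate 1 and 63.4% in replicate 2, with a read-based mean of 71.8%. The quantifications disagreed on the rest. By alignment Gfra2-202 held 24.7% and 22.1%, whereas the read-based tables list it at 0 in both libraries. Gfra2-202, of 309 codons, has another first exon, and an intron is removed within the last exon of Gfra2-201. The authors' posterior mean counts for it were 44.78 ± 10.53 and 34.51 ± 10.21 (posterior SD). Gfra2-203, of 331 codons, held 9.41% and 14.5% by alignment and 26.7% and 29.7% in the read-based tables. Gfra2-203 joins exon 1 straight to the exon that is the fourth of Gfra2-201, and that junction, which is in no other Gfra2 transcript, is the main sequence that can identify it: only 28 of its 31-base words, 2.17%, are its own.
Gfra2-203: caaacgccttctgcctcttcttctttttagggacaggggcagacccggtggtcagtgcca
The junction lies in the middle of these 60 bases and spans chr14:70890894-70925718, plus strand.

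Gfra4 (ENSMUSG00000027316.15, chr2:131039632-131043088, minus strand), the persephin co-receptor, was at 1.70 TPM (replicate 1) and 1.63 TPM (replicate 2), on 80 and 77 counts (mean 1.67 ± 0.0495 TPM, SD, n = 2). Read-based TPM was 4.19 and 3.94, that is 2.47 and 2.42 times the alignment-based values. Over all genes at 1 TPM or more by either method, read-based TPM was a median of 1.82 and 1.93 times alignment-based TPM, so that Gfra4 stood above the other members in this respect. After that shared factor was removed, 0 of the 7 members at 1 TPM or more by either method differed over 2-fold in both libraries, where 7.74% of genes did.

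Most Gfra4 RNA was assigned to transcripts that keep introns. Of 8 annotated transcripts, 4 keep an intron of 53 bases, and these 4 held 76.5% of Gfra4 TPM in replicate 1 and 77.4% in replicate 2 (mean 77.0 ± 0.685%, SD, n = 2). The read-based shares were 72.1% and 68.6%. The transcripts annotated as retained intron, Gfra4-208 and Gfra4-207, led by TPM: Gfra4-208 had 47.6% and 45.7% and Gfra4-207 28.8% and 31.7%. Read-based shares of these 2 together were 54.9% and 56.2%. By expected counts the longer Gfra4-207 led on the mean, with 40.6% against 38.2% for Gfra4-208. Posterior mean counts were 29.68 ± 7.18 and 28.6 ± 7.78 for Gfra4-208 and 31.24 ± 5.37 and 32.25 ± 5.29 for Gfra4-207 (posterior SD). Gfra4-207 also keeps an intron of 540 bases and the last intron of 73 bases. Such retained-intron transcripts held over 50% of TPM in both libraries in 2.33% of the 7156 genes that have one and reached 1 TPM, and Gfra4 was among them. In mouse, splicing of Gfra4 is known to yield GPI-anchored, transmembrane and soluble proteins.

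The sequences below show the 53-base intron as kept in Gfra4-208 (in capitals, chr2:131041342-131041394, minus strand) and the same place spliced in the protein-coding Gfra4-206, whose junction falls after the 30th base.
Gfra4-208: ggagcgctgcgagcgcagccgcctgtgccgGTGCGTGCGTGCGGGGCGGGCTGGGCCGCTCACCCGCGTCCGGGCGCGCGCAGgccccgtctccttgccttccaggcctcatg
Gfra4-206: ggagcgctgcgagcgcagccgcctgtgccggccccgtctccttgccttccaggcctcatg
Gfra4-206 was the leading spliced form in replicate 2. It held 11.8% of Gfra4 TPM in replicate 1 and 22.6% in replicate 2, with read-based shares of 12.3% and 31.4%. Gfra4-202, also spliced, held 11.8% in replicate 1 and was listed at 0 in replicate 2. These shares rest on few counts, 10.21 and 17.73 for Gfra4-206. No 31-base word of Gfra4-208 is its own, whereas 38% of those of Gfra4-207 are, and besides these only 7 words of Gfra4-206 are particular to 1 transcript of the gene. Gfra4-207 shares 50 such words with the microRNA gene Mir6973b, which lies inside Gfra4 on the same strand.

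Gfra3 (ENSMUSG00000024366.8, chr18:34689898-34720387, minus strand), the artemin co-receptor, was at 0.98 TPM (replicate 1) and 0.92 TPM (replicate 2), on 72 and 63 counts (mean 0.95 ± 0.0424 TPM, SD, n = 2). Read-based TPM was 1.64 and 1.81. The level fell just under the 1 TPM threshold in both libraries by alignment and above it in both read-based tables. Gfra3 has 1 annotated transcript, so no share could vary.

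Gfra1 (ENSMUSG00000025089.15, chr19:58235604-58455909, minus strand), the Gdnf co-receptor, was the lowest of the 4, with 0.71 TPM in replicate 1 and 0.62 TPM in replicate 2 on 88 and 74 counts (mean 0.67 ± 0.0636 TPM, SD, n = 2). Read-based TPM was 1.08 and 1.20. Ret was 1.63 and 1.74 times as high as Gfra1, the co-receptor that pairs it with Gdnf.

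Gfra1 has 9 annotated transcripts, and the shares given to the long ones differed between the quantifications. The main choice is an in-frame exon of 15 bases (chr19:58392573-58392587), present in Gfra1-201 of 468 codons and skipped in Gfra1-203 of 463 codons. It is printed in capitals, with the skipped form below it, whose junction falls after the 30th base.
Gfra1-201: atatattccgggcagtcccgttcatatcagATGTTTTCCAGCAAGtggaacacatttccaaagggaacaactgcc
Gfra1-203: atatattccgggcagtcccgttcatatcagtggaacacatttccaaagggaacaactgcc
Among the 5 transcripts that span this place, those with the exon held 0% in both libraries by alignment, and 56.5% and 30.7% in the read-based tables. Gfra1-203 held 71.8% and 74.2% of all Gfra1 TPM by alignment and 38.3% and 49.1% in the read-based tables. The authors' posterior mean counts for Gfra1-201 were 23.64 ± 18.12 and 8.83 ± 8.36 (posterior SD), although its expected count was 0 in both libraries. Over the 4 transcripts with the exon, posterior mean counts were 33.46 and 18.68, where the gene had 88 and 74 counts. The 0% by alignment was thus a point estimate, and use of the exon was not resolved. Only 1.02% of the 31-base words of Gfra1-201 and 0.639% of those of Gfra1-203 occur in no other transcript of the gene. The short Gfra1-205, which took 25.4% and 17.7% of TPM by alignment, did so on 2.24 and 1.29 counts.

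**Figure D3:**
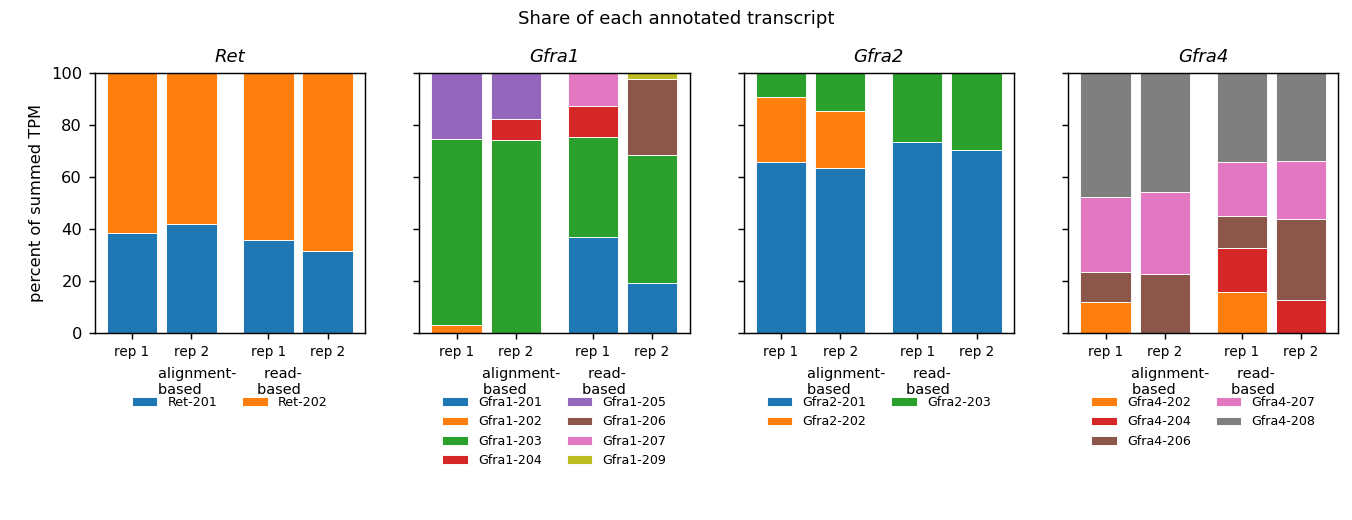
Share of each annotated transcript in the summed TPM of its gene, in percent, for the 4 genes with more than 1 transcript and 20 or more counts; each bar is 1 library in 1 quantification. Ret is led by Ret-202 in every bar (from 58.3% to 68.7%), Gfra4 is led by Gfra4-208 in every bar, and Gfra1-201 (36.8% and 19.2%) appears only in the read-based bars.

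Over the genes with several transcripts and 1 TPM or more (Ret, Gfra2 and Gfra4), the leading transcript was the same in both quantifications, so 0 of 3 differed. It differed in 24% of 11207 such genes.

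Neurturin was the only GDNF-family ligand of the 3 members to reach 1 TPM. Nrtn (ENSMUSG00000039481.5, chr17:56751325-56757530, minus strand) was at 1.14 TPM (replicate 1) and 1.38 TPM (replicate 2), on 41 and 46 counts (mean 1.26 ± 0.170 TPM, SD, n = 2). Read-based TPM was 1.89 and 2.51. It has 1 annotated transcript of 1023 bases.

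Artn (ENSMUSG00000028539.14, chr4:117926162-117929763, minus strand), which encodes artemin, was at 0.12 TPM (replicate 1) and 0.18 TPM (replicate 2), on 7 and 11 counts. The exact 95% Poisson intervals, which cover counting error only, were 0.0482 to 0.247 TPM and 0.0899 to 0.322 TPM. Gdnf (ENSMUSG00000022144.4, chr15:7810846-7837575, plus strand) was at 0.07 TPM (replicate 1) and 0.10 TPM (replicate 2), on 10 and 13 counts. Its intervals were 0.0336 to 0.129 TPM and 0.0532 to 0.171 TPM. The intervals of these 2 ligands overlapped in each library, so their order was not resolved by counting. Nrtn was 16.3 and 13.8 times as high as Gdnf, and 9.5 and 7.67 times as high as Artn. The read-based ratio of Nrtn to Gdnf was 16.8 and 14.1. Nrtn and Gfra2, a preferred pair, were each the highest member of their class. Both counts of Artn were too low for isoforms: Artn-202 held 100% of its TPM in replicate 1 and 68.4% in replicate 2, and Artn-201 held 31.6% in replicate 2 on 4.35 counts.

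Ngfr (ENSMUSG00000000120.6, chr11:95568818-95587735, minus strand) was at 1.65 TPM (replicate 1) and 1.5 TPM (replicate 2), on 214 and 182 counts (mean 1.58 ± 0.106 TPM, SD, n = 2). Read-based TPM was 2.81 and 2.72. It has 1 annotated transcript, of 6 exons and 427 codons. Of the 31-base words of Ngfr, 56 of 3416 occur in transcripts of other genes, as do 89 of 3442 in Gfra2-201. Such words are spread over 1819 other genes for Ngfr and 1961 for Gfra2, each set including the other member. Reads from these stretches could in principle be assigned to any of these genes. By alignment, the counts of Ngfr and Gfra2 were whole numbers in both libraries, and the posterior SD of Ngfr was 0. No split of reads with other genes thus shows in these counts. Read-based counts were 233.029 and 199.022 for Ngfr and 378.457 and 336.361 for Gfra2. No other member but Gfra4 shared such words with another gene.

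In the order of mean TPM, Gfra2, Gfra4, Ngfr, Nrtn, Ret, Gfra3, Gfra1, Artn and Gdnf followed each other. Gfra4 and Ngfr did not differ beyond their spread over the libraries, nor did Nrtn and Ret. All other neighbours had ranges that did not overlap, on only 2 values a gene. Counting intervals overlapped in each library for Ngfr and Nrtn, Ret and Gfra3, Gfra3 and Gfra1, and Artn and Gdnf. The order within these pairs was not resolved by counting. The order was the same in read-based TPM and in FPKM, where 0 of the 9 genes changed place, although in read-based TPM Gfra4 and Ngfr did lie apart.

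Between the libraries, scaled counts of the receptors were lower in replicate 2 and those of the ligands higher, and for all but Gfra2 the counting interval of the ratio reached across 0. The small difference of Gfra4 turned to 0.03 under total-count scaling, and in read-based TPM Ret, Gfra1, Gfra2 and Gfra3 were higher in replicate 2. The log2 ratio of replicate 2 over replicate 1, from TMM-scaled counts, was -0.19 for Ret (95% counting interval -0.48 to 0.10). It was -0.24 for Gfra1, -0.23 for Gfra2, -0.18 for Gfra3, -0.05 for Gfra4 and -0.23 for Ngfr. Nrtn had 0.17 (-0.47 to 0.82), Gdnf 0.37 (-0.92 to 1.74) and Artn 0.62 (-0.84 to 2.26). The interval held 0 for 8 of the 9 genes, and for 6 of the 7 averaging at least 20 counts, where it did for 65.8% of 15660 genes. Gfra2 was the exception, with an upper bound of -0.000707, and on a total-count scale its ratio was -0.15. Among the 7 members averaging at least 20 counts, 0 lay over 1.5-fold apart, where 6.4% of 15660 genes did. The ratio was below 0 for 6 of these 7 members and for 51.1% of the 15660 genes, and the medians were -0.19 and -0.01.

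**Figure D4:**
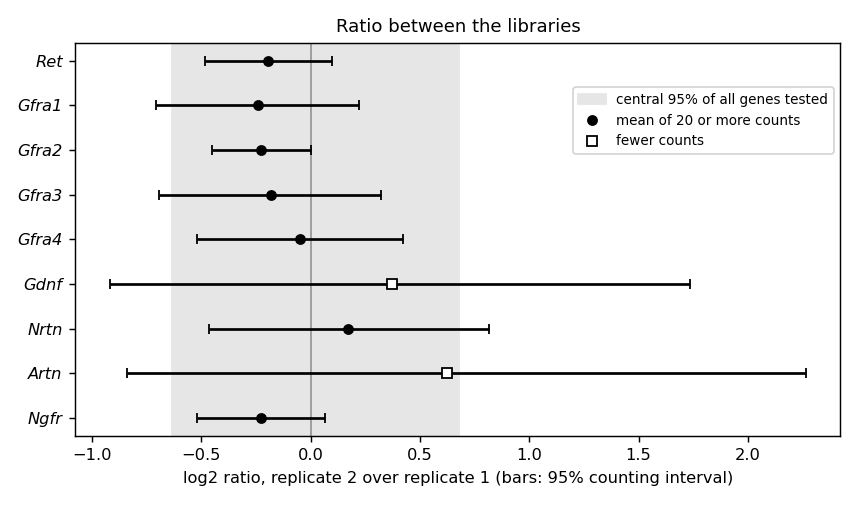
Log2 ratio of replicate 2 over replicate 1 for each gene (points) with its 95% counting interval (bars); open squares are genes with a mean under 20 counts. The grey band, -0.64 to 0.68, holds the central 95% of 15660 genes, and all 9 points lie inside it while the intervals of Gdnf and Artn run well past it.

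Markers of several cell types were lower in replicate 2 as well. The ratio was below 0 for 13 of 13 chromaffin markers (median -0.27). It was below 0 for 8 of the 9 tested of 12 Schwann and sustentacular cell markers (median -0.31). They summed to 48.8 TPM in replicate 1 and 41.6 TPM in replicate 2, of which Pmp22 alone held 29.62 and 27.55 TPM. All 6 tested of 10 markers of ganglion neurons and nerve fibres lay below 0 (median -0.42), with Chat and Slc18a3 at 0 counts. Their sums were 43.4 and 34.8 TPM, of which Gal alone held 35.57 and 27.75 TPM. Capsule and stroma (7 of 8, median -0.31) and pericyte and smooth muscle markers (6 of 6, median -0.40) were also lower, and the 5 fat markers were lowest (median -1.10, 1324 TPM in replicate 1 and 761 TPM in replicate 2). Cortical markers had a median of 0.05, endothelial markers 0.03 and the 3 tested of 5 kidney markers 0.86, with kidney sums of 2.67 and 5.80 TPM. Per 1000 TPM of chromaffin markers, Ret was at 0.440 TPM (replicate 1) and 0.471 TPM (replicate 2), Gfra2 1.29 and 1.38, and Ngfr 0.626 and 0.654. Per 1000 TPM of cortical markers the direction was the other way, with 0.0780 and 0.0656 TPM for Ret, 0.229 and 0.192 for Gfra2, and 0.111 and 0.0910 for Ngfr. The part of these cell types in the ratios of the 9 genes was not tested.

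Other partners of the GDNF family were led by genes with wider roles. Sdc3, a heparan sulfate proteoglycan that binds GDNF-family ligands, was at 93.9 TPM (replicate 1) and 103 TPM (replicate 2), Gas1, a Gfra-related surface protein, 18.4 and 15.8 TPM, and Ncam1, an alternative Gdnf receptor, 12.7 and 12.6 TPM. Sorl1, a sorting receptor for Gdnf, had 5.98 and 7.42 TPM. Pspn, the ligand of Gfra4, was near the limit with 1 and 4 counts. Gfral, the receptor of Gdf15, had 0 counts in both libraries. Of these 7 partners 4 reached 1 TPM in both libraries, where 54.2% of nuclear protein-coding genes did. Gdf15 alone of the 5 with 20 or more counts lay over 1.5-fold apart, where 3.28% of genes were that much higher in replicate 2. Gdf15, a stress-induced ligand, was at 0.38 TPM (replicate 1) and 1.10 TPM (replicate 2) on 19 and 51 counts, with a log2 ratio of 1.41 (0.65 to 2.27).

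The leading adaptors of the pathway stood at much higher levels than the receptors. Of 22 adaptors and effectors of Ret, 16 reached 1 TPM in both libraries, where 54.2% of nuclear protein-coding genes did. Grb2 was at 46.9 TPM (replicate 1) and 47.0 TPM (replicate 2), the phosphatase gene Ptpn11 35.2 and 38.4 TPM, Shc1 32.7 and 29.9 TPM and Grb10 23.5 and 20.5 TPM. These adaptors serve many receptors. At 20 or more counts, 1 of 19 was over 1.5-fold higher in replicate 2 (Dok6, log2 ratio 0.74), where 3.28% of genes were. Another 1 was over 1.5-fold lower (Dok2, -0.71), where 3.12% of genes were, and both were named after their values were seen. Neither call held in the read-based counts (0.52 for Dok6 and -0.50 for Dok2), whereas both did by total count (0.82 and -0.64). By TPM Dok6 had a log2 ratio of 1 on levels of only 0.06 and 0.12 TPM. Dok2 was higher in replicate 2 by TPM (0.93 and 1.04 TPM, log2 ratio 0.16). Of 9 genes known as targets or feedback inhibitors of Ret signalling, 7 reached 1 TPM in both libraries, led by Spred1 (32.7 and 34.1 TPM), Dusp6 (20.4 and 18.1 TPM), Spry2 (11.6 and 11.8 TPM) and Spry1 (11.5 and 10.6 TPM). They respond to many receptor kinases. Of the 8 with enough counts 0 passed 1.5-fold, where 6.4% of genes did. A ratio below 0 was found for 7 of these 8 and for 51.1% of genes, and their median was -0.25 beside -0.01 over all genes.

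On the neurotrophin side, the highest levels were those of receptors. Sort1, which encodes sortilin, was at 16.6 TPM (replicate 1) and 15.4 TPM (replicate 2). Ntrk2, the receptor of brain-derived neurotrophic factor, had 8.51 and 5.41 TPM, and Ntrk3, the receptor of neurotrophin 3, had 6.8 and 6.07 TPM. Nradd, an Ngfr homologue, had 3.47 and 3.89 TPM, and the sortilin relatives Sorcs2 and Sorcs1 had 2.88 and 3.33 TPM and 0.17 and 0.17 TPM. The ligand gene Ntf3 had 0.94 and 0.64 TPM. Bdnf had 0 and 1 counts, Ntf5 0 in both libraries, and Sorcs3 1 and 0. Of 12 genes 7 reached 1 TPM in both libraries, where 54.2% of nuclear protein-coding genes did. Of the 9 with enough counts 2 were over 1.5-fold lower in replicate 2, where 3.12% of genes were. These were Ntrk2 (log2 ratio -0.67, -0.80 to -0.54) and Ntf3 (-0.65, -1.38 to 0.04). The interval of Ntf3 included 0. The ratio of Ntf3 was under 1.5-fold by total count (-0.57) and by TPM (-0.56), and over it in the read-based counts (-0.77). The interval of Ntrk2 did not reach 0, and this gene varied more between the libraries than any receptor among the members with 20 or more counts.

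Of 12 intracellular and surface partners of Ngfr, 10 reached 1 TPM in both libraries, where 54.2% of nuclear protein-coding genes did. The highest were Arhgdia, a GDP dissociation inhibitor (112 TPM in replicate 1 and 120 TPM in replicate 2), the adaptors Maged1 (77.3 and 80.3 TPM) and Bex3 (56.3 and 64.4 TPM), and Adam17, a protease that sheds Ngfr (11.6 and 11.0 TPM). At 20 or more counts 1 of 11 was over 1.5-fold lower in replicate 2, where 3.12% of genes were. This was Lingo1 (-0.60), named after its value was seen. Its interval of -1.35 to 0.11 included 0. The ratio of Lingo1 was under 1.5-fold by total count (-0.53) and by TPM (-0.14), and over it in the read-based counts (-0.67). The median ratio of the partners was -0.03, and it turned to 0.05 under total-count scaling and 0.06 by TPM.

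**Figure D5:**
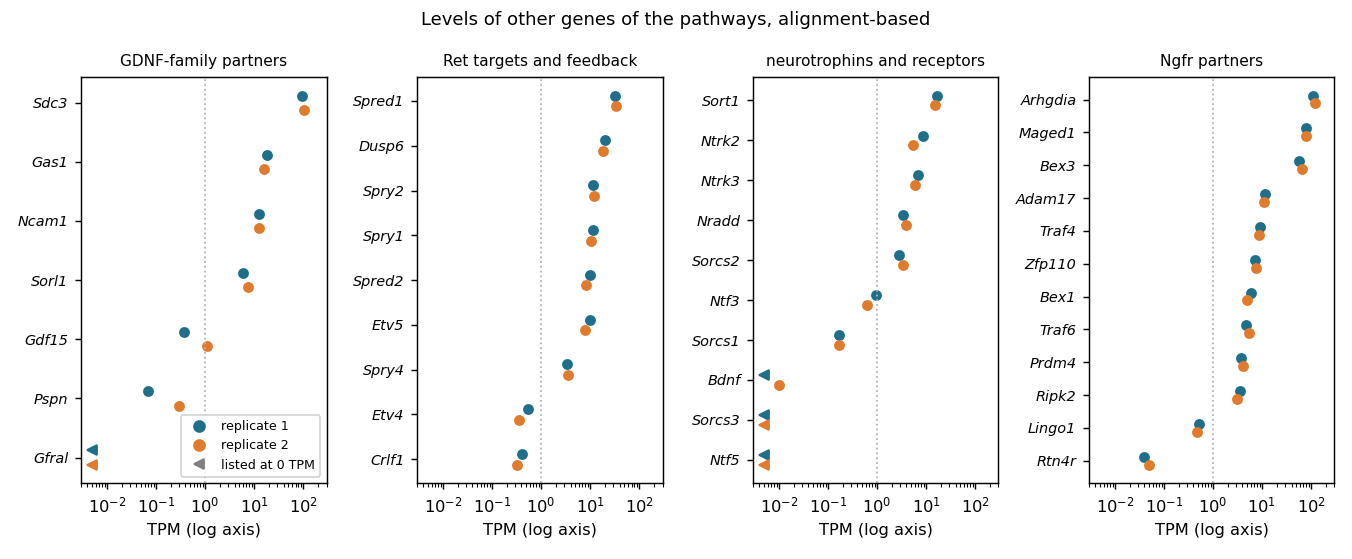
Alignment-based TPM on log axes of genes in 4 of the pathway lists, 1 point per library, with triangles at the left edge for genes listed at 0 TPM; the dotted line marks 1 TPM. Ntrk2 (8.51 and 5.41 TPM) and Gdf15 (0.38 and 1.10 TPM) show wide gaps between the libraries, and Gfral and Ntf5 sit at 0.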

How the data were processed

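Total RNA-seq of 2 adrenal libraries was analysed from deposited tables (build mm10, or GRCm38, per the labels, and GENCODE M21 per the authors' file notes). Names of the aligner and quantifiers are not given in the sources used here. The authors' tables from alignments hold expected counts, TPM, FPKM and posterior mean counts with SDs, per the file headers. Their column for the percent of each isoform, deposited beside these, was left aside. The deposited read-based tables hold estimated counts and TPM per transcript, summed here per gene. TPM divides by an effective length, the length minus 99 bases by alignment and minus about 325 and 326 bases in the read-based tables, so short transcripts scale differently. Mapping of reads from the CAST parent was not tested.

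Ratios are log2 of counts plus 0.5, replicate 2 over replicate 1, scaled by edgeR 4.0.16 TMM, with DESeq2 1.42.0 size factors as an alternative. Intervals are exact (Clopper-Pearson for ratios, Poisson for levels, both 95%) and cover counting error only. The replicate dispersion over 16789 genes was 0.0105. Expected counts were rounded to whole numbers for these scalings. Isoform shares were computed from TPM. Words of 31 bases were compared over all M21 transcripts, a check added after the reference was seen. A planned protein alignment of the co-receptors was not made here. The ratio procedure was tested on simulated data.

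The members, gene lists and tests were chosen with earlier results of these data known. All members were named, then the 4 genes of highest mean TPM in each of 5 pathway lists and every GDNF-family partner, neurotrophin and neurotrophin receptor. Values of some single genes under this rule are not reported here. With 1 group there was no test.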

Additional observations from a re-analysis of the deposited data

How the results depend on the processing

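The number of members at 1 TPM or more in both libraries was 5. It was 7 in the read-based tables, 7 when TPM was rescaled to nuclear protein-coding genes, 7 at a threshold of 0.5 TPM and 0 at a threshold of 5 TPM. Without replicate 1 or without replicate 2 it was between 5 and 5. The number over 1.5-fold apart between libraries was 0 and became 1, Artn, with no filter on low counts. It was 0 with DESeq2 size factors, total-count scaling, TPM ratios, read-based counts, a pseudocount of 1, a minimum of 100 counts and a 2-fold limit. The number over 2-fold apart between quantifications was 0 and became 1, Gfra4, with no centring, by which the median factor between the tables is left in. The number whose leading transcript differed between quantifications was 0 in every alternative run. With counts in place of TPM, however, the mean share of Gfra4-207 passed that of Gfra4-208 in both quantifications. All 9 levels moved by over 1 SD in read-based TPM and in rescaled TPM, and 4 did in FPKM. Rescaling multiplies every level by 3.36 or 3.29, so that move was fixed in advance. The read-based move includes the shared median factor of 1.82 or 1.93. Of 26 isoform shares, 14 moved by over 1 SD in the read-based tables and 9 when expected counts replaced TPM. No paired analysis was possible because there was 1 group. Counts of 7 to 13 for Artn and Gdnf limit their levels and isoforms, and shared sequence limits the isoforms of Gfra1 and Gfra4.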
